A study of Homo sapiens with 2 samples.

Results

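The high-mobility group (HMG) genes, which encode small and abundant non-histone proteins of chromatin, were examined after knockdown of SUB1 in PC3 cells. Members were the probes for genes, as opposed to control spots, that the array files assign to HMGA1, HMGA2, HMGB1, HMGB2, HMGB3, HMGN1, HMGN2, HMGN3 or HMGN4. These 9 of the 30484 gene names on the array held 22 of its 41000 probes, with 1 to 5 probes per gene. All 22 passed the filter on dim probes, which asks for a signal well above background in Cy3 or Cy5 of each array, as did 25673 probes in all.

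HMG proteins bend, loosen or unwind DNA and compete with linker histone H1 for nucleosomes, so that their amount helps to set how open chromatin is. HMGA proteins bind the minor groove of AT-rich DNA through AT-hooks, HMGB proteins bend DNA with HMG boxes, and HMGN proteins bind the nucleosome core itself. HMGA1 and HMGA2 are expressed in embryos and again in many carcinomas, and HMGB1 also acts outside the cell as an alarm signal for the immune system.

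PC3 is an aggressive prostate cancer cell line derived from a bone metastasis and grown in medium with serum. Cells were transfected with SUB1 siRNA 1, SUB1 siRNA 2 or a non-targeting siRNA (Non-T) in 2 identical rounds, and RNA was taken 72 h after the first. SUB1, also called PC4, is a transcriptional coactivator that binds single-stranded DNA. On each of 2 dual-colour Agilent arrays of 1 slide, Non-T RNA was labelled with Cy3 and RNA of 1 SUB1 siRNA with Cy5. The comparison asks how the knockdown changed gene expression, and each log2 ratio is Cy5 over Cy3, so that a negative value is a lower signal after SUB1 siRNA.

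There was 1 array per siRNA and therefore no replicate of a single siRNA. Dyes were not swapped, so the knockdown and the dye cannot be told apart as sources of a ratio, and it is not stated whether both arrays carried the same Non-T extract. On the 209 gene probes that were spotted 10 times, the SD among spots had a median of 0.078 (siRNA 1) and 0.074 (siRNA 2) on the log2 scale. Each member probe was spotted once and has no SD of its own. Of the 4 SUB1 probes, 3 had log2 ratios between -3.75 and -3.30 with siRNA 1 and between -3.50 and -3.16 with siRNA 2, and the dimmest had -1.81 and -1.57. Genes of epithelial cells (EPCAM, KRT8, KRT18, KRT19 and CDH1) were well above background in the Cy3 channel of both arrays, 5 of 5. Of 4 genes of other cell types, PTPRC was not above background and single dim probes for PECAM1, COL1A1 and CD14 were. The only CDH1 probe was about as dim. On the siRNA 1 array its mean log2 signal of both channels was 7.29, against 6.99 (PECAM1), 7.58 (COL1A1) and 6.73 (CD14). Both channels measure RNA of a whole culture, so fewer cells with a transcript and less transcript per cell cannot be told apart.

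The regulatory sequence of the HMGN genes is shown because these 4 relatives, which encode the same kind of protein, gave different ratios. Each line is the 250 bases upstream of the transcription start in RefSeq on GRCh38.p14, read 5′ to 3′ on the strand of the gene, with CCAAT boxes and GC boxes (GGGCGG) on either strand in capitals.
HMGN1: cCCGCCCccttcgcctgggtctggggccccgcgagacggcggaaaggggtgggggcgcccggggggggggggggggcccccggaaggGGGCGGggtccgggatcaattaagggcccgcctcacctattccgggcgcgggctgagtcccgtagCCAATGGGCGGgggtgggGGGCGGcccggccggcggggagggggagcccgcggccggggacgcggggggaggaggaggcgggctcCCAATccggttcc
HMGN2: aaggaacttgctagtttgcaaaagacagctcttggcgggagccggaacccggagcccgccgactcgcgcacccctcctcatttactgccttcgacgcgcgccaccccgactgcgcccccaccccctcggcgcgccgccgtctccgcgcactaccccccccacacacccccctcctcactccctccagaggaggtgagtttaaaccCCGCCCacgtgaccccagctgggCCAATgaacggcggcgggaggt
HMGN3: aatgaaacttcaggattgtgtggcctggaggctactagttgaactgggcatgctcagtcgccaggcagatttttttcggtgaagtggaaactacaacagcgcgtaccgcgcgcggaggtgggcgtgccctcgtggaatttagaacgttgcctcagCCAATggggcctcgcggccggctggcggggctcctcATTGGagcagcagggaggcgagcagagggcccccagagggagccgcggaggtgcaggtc
HMGN4: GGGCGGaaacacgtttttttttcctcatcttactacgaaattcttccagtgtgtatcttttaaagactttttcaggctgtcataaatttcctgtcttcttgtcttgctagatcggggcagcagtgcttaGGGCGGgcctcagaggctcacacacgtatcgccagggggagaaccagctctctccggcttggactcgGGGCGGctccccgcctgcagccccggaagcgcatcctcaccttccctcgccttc

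These windows lie at chr21:39349089-39349338 on the - strand (HMGN1), chr1:26472190-26472439 on the + strand (HMGN2), chr6:79234683-79234932 on the - strand (HMGN3) and chr6:26538116-26538365 on the + strand (HMGN4). CCAAT, the motif of the factor NF-Y, was found 2 times for HMGN1, 1 time for HMGN2, 2 times for HMGN3 and 0 times for HMGN4. GGGCGG, the core bound by SP1, was found 4, 1, 0 and 3 times in the same order. In HMGN1 a CCAAT box stands directly beside a GC box, without overlap. Over all 35116 RefSeq promoters with a window of this length, 32.0% held CCAAT and 42.6% held GGGCGG. Neither TTTGAA (a cell cycle element, in 13.3% of all promoters) nor TTTGGCG (an E2F-like core, in 1.59%) was found in the 4 windows on either strand. The letters are a description of the windows and no site was measured. Promoters were matched for 7 of the 9 genes, all but HMGA2 and HMGB2.

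Over the family, most probes had a lower signal after SUB1 siRNA. With siRNA 1 the 22 ratios ran from -0.97 to 2.50 with a median of -0.47, and 16 (72.7%) were below 0, against 47.6% of all kept probes, whose median was 0.01. With siRNA 2 they ran from -1.16 to 0.89 with a median of -0.60, and 20 (90.9%) were below 0, against 47.7% of all kept probes, whose median was again 0.01. The family median leans on genes with many probes: with only the brightest probe of each of the 9 genes it was -0.08 for siRNA 1 and -0.41 for siRNA 2. The genes differed among themselves. HMGA1, HMGB1, HMGB2, HMGB3, HMGN2 and HMGN4 had negative ratios at every probe on both arrays, though those of HMGA1 and HMGB3 with siRNA 1 were between -0.08 and -0.01, HMGN1 lay near 0, and HMGA2 held both the highest value and one of the lowest.

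**Figure D1:**
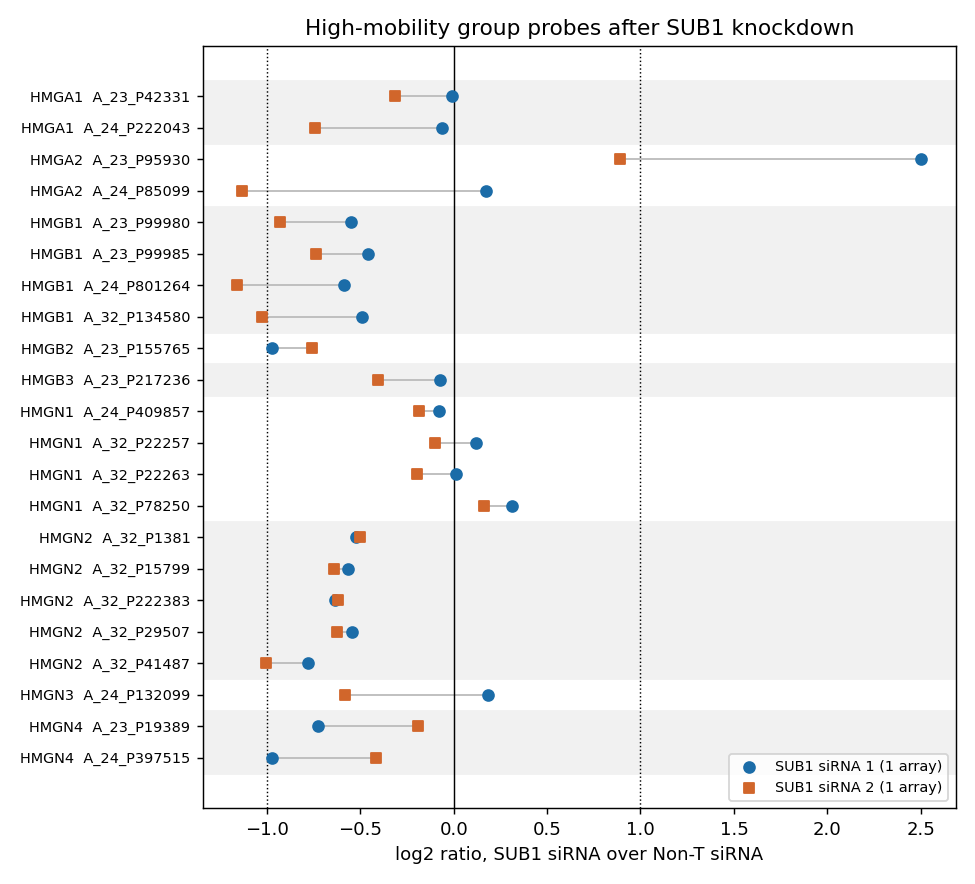
Log2 ratio of the SUB1 siRNA channel over the Non-T channel for each of the 22 probes of the HMG genes, with a circle for the siRNA 1 array and a square for the siRNA 2 array, joined by a grey line; dotted lines mark a 2-fold change. One HMGA2 probe lies at 2.50 and 0.89 and the other at 0.17 and -1.13, while the HMGB1 and HMGN2 probes lie left of 0 on both arrays.

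A change of at least 2-fold, the rule used in the study, was met by few of them. With siRNA 1, 1 of 22 member probes was at least 2-fold higher, an HMGA2 probe, where 0.191% of all kept probes were, and 0 were at least 2-fold lower, where 0.557% were. With siRNA 2, 0 member probes were at least 2-fold higher, where 0.526% of all kept probes were. At least 2-fold lower with siRNA 2 were 4 of 22, where 0.923% of all kept probes were, namely 1 probe of HMGA2, 2 of HMGB1 and 1 of HMGN2. These HMGB1 and HMGN2 probes also list an accession of another gene. The probes of HMGB1 and HMGN2 that list no other gene were short of 2-fold, at -0.93 and -0.74 (HMGB1) and -0.50 (HMGN2). All 4 called probes fell short of 2-fold when the arrays were centred on their medians without loess. They then lay at -0.93 (HMGA2), -0.82 and -0.73 (HMGB1) and -0.58 (HMGN2). With that setting, 1 HMGA2 probe was at least 2-fold higher with siRNA 2. With a threshold of 1.5-fold, chosen after the data were seen, 1 member probe was higher and 6 were lower with siRNA 1, where 2.21% and 2.92% of all kept probes were. With siRNA 2 the same threshold gave 1 higher and 11 lower, where 3.19% and 3.95% of all kept probes were. The lower probes belonged to 4 genes with siRNA 1 and 5 genes with siRNA 2.

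The mean of both siRNAs was tested against 0 with limma, with adjustment over all 25673 kept probes. At an adjusted p under 0.05, 0 of 22 member probes were called in either direction, where 0% of all kept probes were called higher and 0.0117% lower, all 3 of them for SUB1. At an unadjusted p under 0.05 in limma, 1 member probe was higher (HMGA2), where 10.7% of all kept probes were. At the same threshold 12 were lower, where 10.5% of all kept probes were. These 12 belong to 4 of the 9 genes (HMGB1, HMGB2, HMGN2 and HMGN4), and probes of 1 gene are not separate members. The adjusted p of the members ran from 0.104 to 0.966 in limma. Without the filter on dim probes, limma called 5 member probes, of HMGB2 and HMGN2, among 577 of 40999 probes called, and under each of the 7 other processing settings and both other priors it called 0 of 22.

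**Figure D2:**
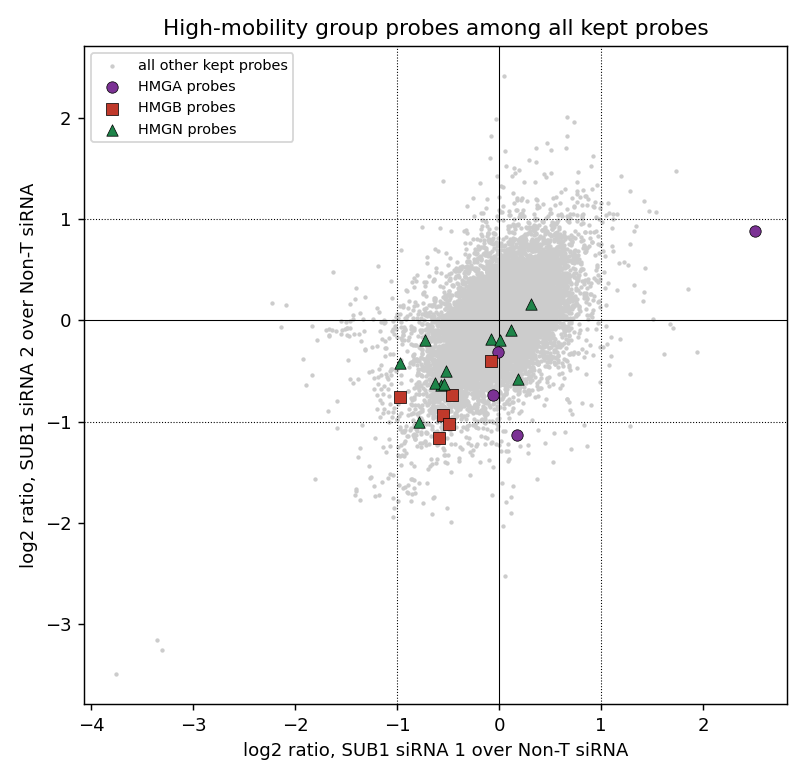
Log2 ratio on the siRNA 2 array against that on the siRNA 1 array for all 25673 kept probes (grey) and the 22 probes of the HMG genes (HMGA circles, HMGB squares, HMGN triangles), with dotted lines at a 2-fold change. The arrays may share a control, so their likeness is not a result. The point farthest to the right is 1 HMGA2 probe. The HMGB1 and HMGB2 probes lie at the lower left, and the HMGB3 probe lies nearer to the centre, at -0.08 and -0.41.

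HMGA2, which binds AT-rich DNA and is repressed by the let-7 microRNAs in adult tissue, gave different ratios at its 2 probes. At probe A_23_P95930 (hg18, chr12:64646056-64646115, + strand) the mean spot signal before correction was 808 in the Non-T channel and 5499.8 in the SUB1 channel of the siRNA 1 array, and 653 and 1439 in those of the siRNA 2 array. The signal was thus higher with both siRNAs and most of all with siRNA 1. Signals here and below are as scanned, and ratios were taken after background correction and loess, so a ratio is not that of the printed signals. The log2 ratios were 2.50 and 0.89, or 5.67-fold and 1.85-fold higher. The value with siRNA 1 was the highest of all 25673 kept probes, and that with siRNA 2 was the 206th highest. The mean of 1.70 ± 0.39 (moderated SE of limma, 2 arrays) had an adjusted p of 0.133 in limma. This SE is drawn toward the spread of all kept probes. It is smaller than the values 2.50 and 0.89 alone would give.

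At the other probe, A_24_P85099, the Non-T signal was 993 and 811 on the siRNA 1 and siRNA 2 arrays, and SUB1 siRNA gave 1335 and 434. The log2 ratios were 0.17 and -1.13, the second being 2.19-fold lower, and limma gave an adjusted p of 0.438. This probe therefore had a lower signal only with siRNA 2. Its listed hg18 coordinates run over 124702 bases (chr12:64518599-64643300), as those of an oligonucleotide across a splice junction would, and end 2755 bases before the first probe begins. The ratio was higher at the first probe by 2.33 with siRNA 1 and by 2.02 with siRNA 2. Among the 4901 genes with several kept probes, whose probes differed by a median of 0.20 and 0.21, HMGA2 had the largest difference on each array. All 4 HMGA2 ratios kept their sign under 6 other ways of processing (other signals, background correction, normalization and outlier handling, and the authors' ratios).

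The difference between the siRNAs lay in the Cy5 channel. From the siRNA 1 to the siRNA 2 array, the normalized log2 signal of the HMGA2 probes changed by -0.08 and -0.08 in Cy3 but by -1.69 and -1.38 in Cy5, where the SD over all kept probes was 0.117 and 0.305. Subtracting the siRNA 1 ratio from the siRNA 2 ratio gave -1.61 at the first probe and -1.31 at the second, which were the 26th and 50th lowest such differences of all kept probes. Both probes thus had a lower ratio with siRNA 2 than with siRNA 1.

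**Figure D3:**
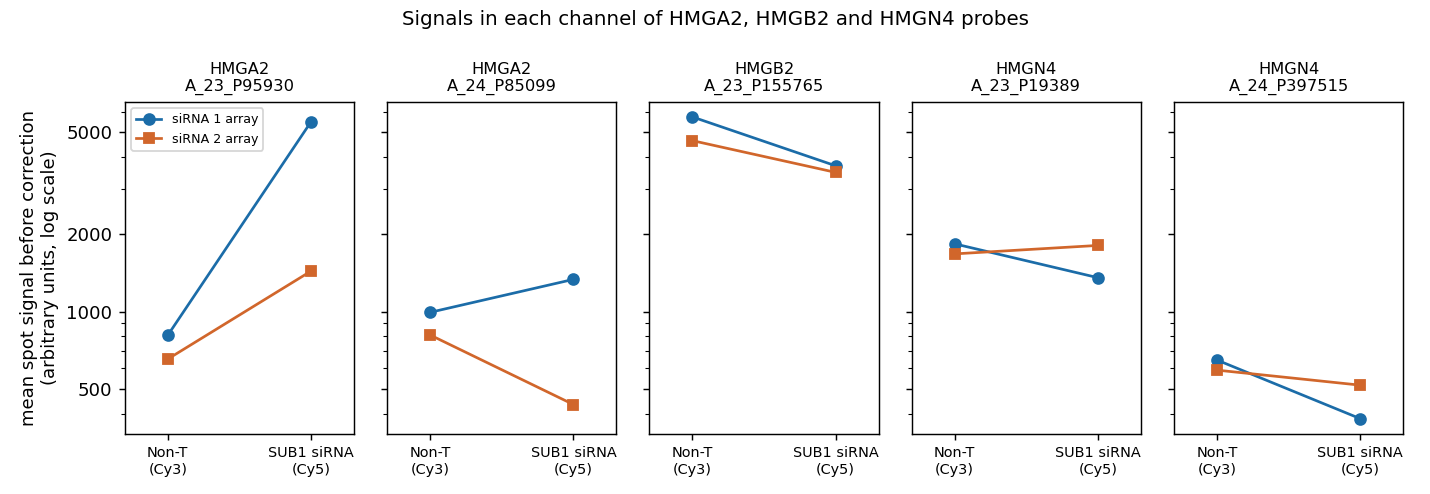
Mean spot signal before correction (arbitrary units, log scale) in the Non-T (Cy3) and SUB1 siRNA (Cy5) channels for the probes of HMGA2, HMGB2 and HMGN4, with circles for the siRNA 1 array and squares for the siRNA 2 array. The Non-T signals of the arrays lie close together, and the HMGA2 probe A_23_P95930 reaches 5499.8 with siRNA 1 against 1439 with siRNA 2.

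HMGA1, the other AT-hook protein, had ratios near 0 with siRNA 1 and negative ratios with siRNA 2. Its probe A_23_P42331 (hg18, chr6:34321573-34321632, + strand) gave 2357 for Non-T and 2892 for SUB1 on the siRNA 1 array, and 1935 (Non-T) and 1926 (SUB1) on the siRNA 2 array, with log2 ratios of -0.01 and -0.31. Probe A_24_P222043 (chr6:34316515-34316574) gave 463 and 505, then 384 and 255, with ratios of -0.06 and -0.74. The adjusted p was 0.478 and 0.291 in limma. Median centring shifts each array's ratios to a median of 0 over all gene probes, without loess. Under it both HMGA1 values with siRNA 1 turned positive, and the siRNA 2 value of the first shrank to -0.05. The authors' ratios with siRNA 1 were also positive, at 0.039 and 0.059. Feature Extraction's processed signals turned the siRNA 1 value of the second probe to 0.0017.

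HMGB1, the most studied HMG box protein, had lower signals with both siRNAs at all 4 probes, which lie within chromosome 13 on the - strand. The brightest, A_24_P801264, gave 10380 for Non-T and 9073 for SUB1 on the siRNA 1 array, and 8812 (Non-T) and 5171 (SUB1) on the siRNA 2 array. Its log2 ratios were -0.59 and -1.16, the second being 2.23-fold lower. The 4 ratios lay between -0.59 and -0.46 on the first array and between -1.16 and -0.74 on the second, so every siRNA 2 value lay below every siRNA 1 value. The difference between the arrays had a mean of -0.44 over the 4 probes, which read the same RNA and are not replicates. The adjusted p ran from 0.112 to 0.126 in limma. With median centring the ratios shrank to between -0.28 and -0.19 with siRNA 1 and between -0.82 and -0.53 with siRNA 2.

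Processed copies of HMGB1 share its sequence. The 2 brightest HMGB1 probes, A_24_P801264 and A_32_P134580, also list the accession of HMG1L1, a copy whose own probe, chosen after its values were seen, gave -0.53 and -1.01. These probes cannot be assigned to 1 of these genes. The other 2 HMGB1 probes list no such copy and gave -0.55 and -0.93, and -0.46 and -0.74.

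HMGB2, a close relative of HMGB1 that is most abundant in dividing cells, had the lowest adjusted p of the HMGB genes. Its probe A_23_P155765 (hg18, chr4:174489588-174489647, - strand) gave 5739 for Non-T and 3701 for SUB1 on the siRNA 1 array, and 4639 (Non-T) and 3488 (SUB1) on the siRNA 2 array. The log2 ratios were -0.97 and -0.76, or 1.96-fold and 1.69-fold lower. Their mean was -0.86 ± 0.11 (moderated SE of limma, 2 arrays), with an adjusted p of 0.104 in limma. With siRNA 1 it was the 159th lowest of all kept probes and with siRNA 2 the 524th. Unlike at HMGB1, the ratio was the lower with siRNA 1, by 0.21. With median centring the ratios were -0.69 and -0.46.

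HMGB3, a paralogue known from blood progenitors and encoded on the X chromosome (hg18, chrX:149907564-149907623, + strand), stood nearer to 0. Its signals were 1293 for Non-T and 1489 for SUB1 on the siRNA 1 array, and 1075 (Non-T) and 977 (SUB1) on the siRNA 2 array. The log2 ratios were -0.08 and -0.41, with an adjusted p of 0.324 in limma. With median centring the first changed sign and the second shrank to -0.17. The first also turned to 0.032 with the authors' ratios and to 0.0053 with median spot signals. The ratio of a processed copy, HMG4L, chosen after its values were seen, was -0.09 and -0.36.

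HMGN2, a nucleosome binding protein with very abundant mRNA, had lower signals with both siRNAs at all 5 probes, which lie on the + strand of chromosome 1 within hg18 positions 26674535 and 26675045. The brightest, A_32_P41487, gave 32112 for Non-T and 25932 for SUB1 on the siRNA 1 array, and 27040 (Non-T) and 18848 (SUB1) on the siRNA 2 array, with log2 ratios of -0.78 and -1.01. The other 4 lay between -0.63 and -0.52 with siRNA 1 and between -0.64 and -0.50 with siRNA 2. The mean difference between the arrays over the 5 probes was -0.07, the smallest among the genes with more than 2 probes. The adjusted p ran from 0.104 to 0.114 in limma. With median centring the 5 ratios shrank to between -0.37 and -0.23 with siRNA 1 and between -0.58 and -0.25 with siRNA 2, and all stayed negative. Of the 5 probes, 3 also list an accession of TRMT5, and A_32_P41487 one of C15orf21. These probes cannot be assigned to 1 gene. The remaining probe, A_32_P1381, lists no other gene and gave -0.52 and -0.50.

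HMGN4, an intronless relative of HMGN2, showed the reverse order of siRNAs to HMGB1. Probe A_23_P19389 (hg18, chr6:26654618-26654677, + strand) gave 1837 for Non-T and 1355 for SUB1 on the siRNA 1 array, and 1679 (Non-T) and 1811 (SUB1) on the siRNA 2 array. Probe A_24_P397515 (chr6:26654202-26654261) gave 647 and 382, then 591 and 517. The log2 ratios were -0.72 and -0.19 at the first and -0.97 and -0.42 at the second, with an adjusted p of 0.208 and 0.134 in limma. Both ratios were thus lower with siRNA 1, by 0.53 and 0.55. In Cy5 both probes changed by 0.65 from the siRNA 1 to the siRNA 2 array, against 0.12 and 0.10 in Cy3. The first probe with siRNA 2 turned to 0.06 under median centring, and the second shrank to -0.22.

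HMGN1, encoded in the Down syndrome region of chromosome 21, had ratios near 0. Its 4 probes lay between -0.08 and 0.31 with siRNA 1 and between -0.19 and 0.16 with siRNA 2, and the adjusted p ran from 0.268 to 0.966 in limma. Probe A_32_P78250, the highest on both arrays, gave 2721 for Non-T and 4213 for SUB1 on the siRNA 1 array, and 2300.4 (Non-T) and 3214 (SUB1) on the siRNA 2 array, with log2 ratios of 0.31 and 0.16. It was the only 1 of the 4 whose 2 ratios kept their sign under the 6 other ways of processing. All 4 also list accessions of hCG_17955.

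HMGN3, a member with roles in endocrine and eye tissue, was measured by 1 probe whose listed coordinates span 1250 bases (hg18, chr6:79968811-79970060, - strand). It gave 1441 for Non-T and 1991 for SUB1 on the siRNA 1 array, and 1286 (Non-T) and 1039 (SUB1) on the siRNA 2 array. The log2 ratios were 0.19 and -0.58, of opposite sign, and limma gave an adjusted p of 0.609. HMGN5, listed under its older name NSBP1 and not counted among the 9 genes, had -0.32 and -0.56 at 1 probe and -0.08 and -0.13 at the other.

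The 4 HMGN genes whose promoters are printed above therefore spread over a range: with siRNA 1 the lowest value was -0.97 (HMGN4) and the highest 0.31 (HMGN1), and with siRNA 2 the lowest was -1.01 (HMGN2) and the highest 0.16 (HMGN1). In the windows printed above, HMGN1 and HMGN3 hold 2 CCAAT boxes each, HMGN2 holds 1 and HMGN4 holds 0. With 4 genes, no relation of these letters to the ratios was tested.

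**Figure D4:**
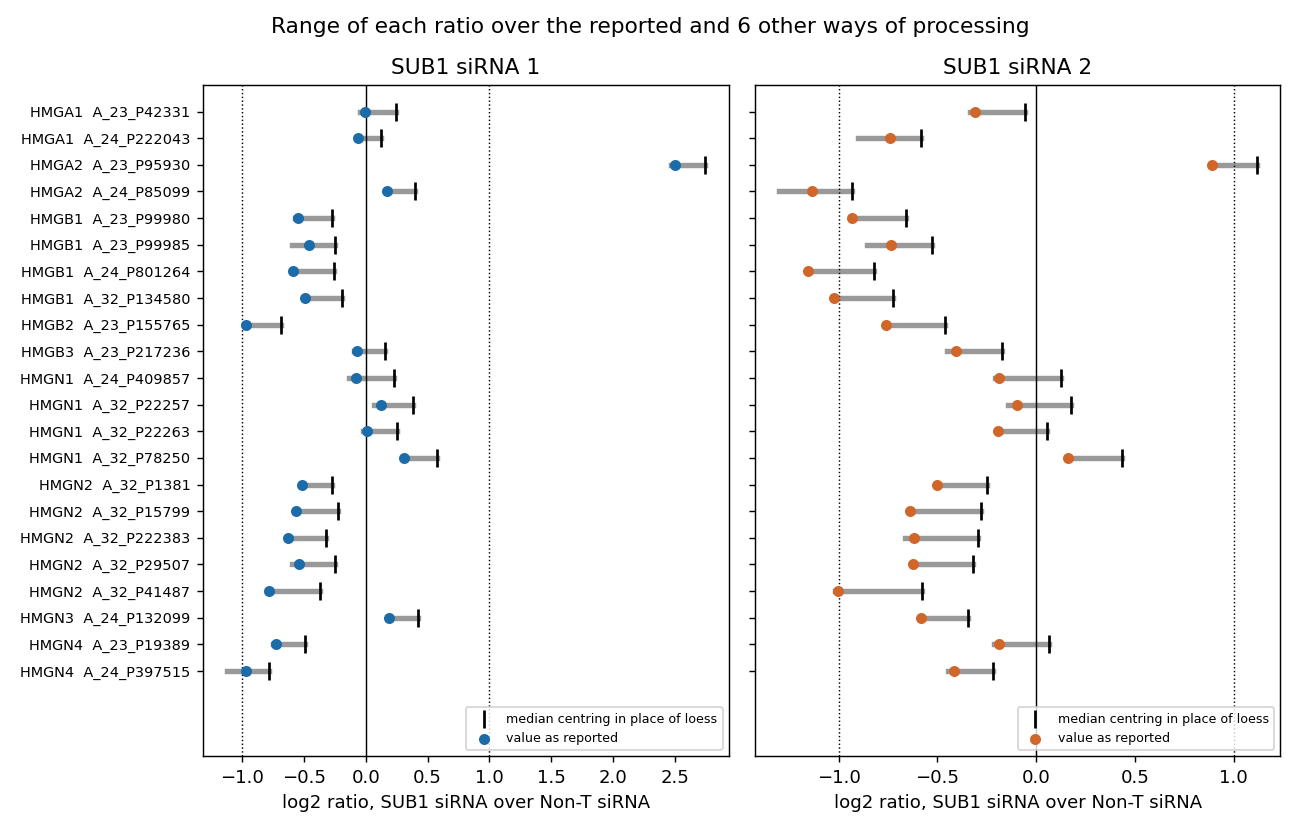
Log2 ratio of the SUB1 siRNA channel over the Non-T channel for the 22 probes of the HMG genes, siRNA 1 left and siRNA 2 right. The dot is the value as reported, the grey bar the range over it and 6 other ways of processing, and the black tick the value with median centring in place of loess, which lies at the right end of each bar; HMGB1, HMGB2 and HMGN2 stay left of 0 throughout.

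Among lists of related genes, no kept probe was at least 2-fold changed on either array. Of all kept probes, 0.191% were higher and 0.557% lower with siRNA 1, and 0.526% and 0.923% with siRNA 2. In lists of this size a count of 0 is near these shares. Of 25 further genes with HMG boxes (HMGB4, TCF and SOX factors, SSRP1, UBTF, TFAM and others), 24 had a probe. Kept were 20 genes with 30 probes, which had a median of 0.07 and 0.16. SSRP1 is also counted in the list of linker histones and chaperones below. None passed an adjusted p of 0.05 in limma, and 9 were higher and 2 lower at an unadjusted p under 0.05, where 10.7% and 10.5% of all kept probes were. The largest absolute mean ratios were those of TCF7, a Wnt pathway factor, with -0.62 and -0.70 (adjusted p 0.104 in limma), and SOX4, with 0.59 and 0.73 (adjusted p 0.105).

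Linker histones and nucleosome chaperones, with which HMG proteins share or compete for nucleosomes, had medians below 0. Of 17 genes, 15 were kept with 24 probes, with a median of -0.20 and -0.36. At an unadjusted p under 0.05, 0 probes were higher and 11 lower, where 10.7% and 10.5% of all kept probes were, and none passed an adjusted p of 0.05 in limma. The largest absolute means were those of the linker histones HIST1H1D, with -0.67 and -0.91 (adjusted p 0.104), and H1FX, with -0.76 and -0.54 (adjusted p 0.106).

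A list for the let-7 axis of HMGA2 held LIN28 genes, genes of let-7 processing and other mRNAs targeted by let-7. Of 14 genes, 10 were kept, with 16 probes and a median of 0.12 and 0.08. This median pools genes with different roles toward let-7. None passed an adjusted p of 0.05 in limma, and 2 probes were higher and 1 lower at an unadjusted p under 0.05, close to the 10.7% and 10.5% of all kept probes. LIN28A and LIN28B, which block let-7 maturation, were not above background. DICER1, which cuts microRNA precursors, had the largest absolute mean ratio, with 0.85 and 0.27 (adjusted p 0.173), and its other probe gave 0.47 and -0.06. A probe for IGF2BP2, an mRNA-binding protein, came next with -0.21 and -0.34 (adjusted p 0.218), and its other probe gave 0.26 and -0.23 (adjusted p 0.963). Of 10 genes for receptors and partners of extracellular HMGB1, 2 passed the filter on dim probes, AGER with -0.17 and 0.05 and CD24 with 0.06 and 0.27. A THBD probe was above background only in Cy5 of the siRNA 1 array and was not kept.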

How the data were processed

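RNA of PC3 cells was compared on 2 dual-colour Agilent arrays, 1 per SUB1 siRNA. The authors scanned them with Agilent Feature Extraction 9.5.1.1 and deposited, for each spot, the intensity and local background in both channels. A deposited table also holds the authors' log2 ratios after loess on each array. Set against ratios of median signals with loess, its columns gave a Pearson r across probes of 0.957 and 0.970 and slopes of 1.01 and 1.02, so they are log2 of Cy5 over Cy3 (column medians -0.0055 and -0.0069). The log10 ratios and p-values in the scanner files were not used.

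Mean signals were corrected by normexp (offset 50), control spots and outlier spots were left out, and loess (span 0.3) was applied in each array (limma 3.58.1, R 4.3.3). A probe was kept if, on each array, 0.5 or more of its spots were flagged well above background in Cy3 or in Cy5. The mean of both siRNAs was tested against 0 with lmFit and eBayes, adjusted by Benjamini-Hochberg over all kept probes; the script was tested on simulated data. The control's own spread is not part of this test, and whether the siRNAs came from separate cultures is not stated. The number of arrays limits the precision. Probe coordinates are the hg18 positions in the file headers and rows, and promoters are of GRCh38.p14. The genes and lists were chosen with earlier results of these data known. Every probe of the 9 genes and SUB1 is given, by its name or gene or within a range, and from each further list the 2 genes with the largest absolute mean ratio, as none was 2-fold changed; other genes were added after their values were seen. Alternatives concerned background, signal, normalization, filter, prior and probe choice.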

Additional observations from a re-analysis of the deposited data

Results flagged for a closer look

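The ratio had opposite signs with the siRNAs at 4 probes; the difference was not tested, with 1 array each. At HMGA2 probe A_24_P85099 the log2 ratio was 0.17 with siRNA 1 and -1.13 with siRNA 2, a difference of -1.31. At HMGN3 it was 0.19 and -0.58, a difference of -0.77. At HMGN1 probe A_32_P22257 it was 0.12 and -0.10 (difference -0.22), and at HMGN1 probe A_32_P22263 it was 0.01 and -0.19 (difference -0.20). Both HMGN1 probes changed sign on at least 1 array under another way of processing.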

How the results depend on the processing

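Of the 44 ratios (22 probes on 2 arrays), 9 changed sign in at least 1 of the 6 alternatives that can alter a ratio, for HMGA1, HMGB3, HMGN1 and HMGN4. With median centring instead of loess, the median of all kept probes was 0.11 and 0.10, and the family median -0.21 (siRNA 1) and -0.29 (siRNA 2), with 1 probe at least 2-fold higher and 0 lower with siRNA 2 (1.21% and 0.448% of all kept probes). It also turned the mean of both siRNAs at HMGA1 probe A_23_P42331 to 0.094, at HMGN1 probes A_24_P409857 and A_32_P22263 to 0.18 and 0.15, and at HMGN3 to 0.038. HMGN1 probe A_32_P22257 turned to -0.0063 with median spot signals and to -0.036 with Feature Extraction's processed signals. The processed signals gave 1 probe at least 2-fold lower with siRNA 1 and 1 higher with siRNA 2 (1.5% and 5.09% of all kept probes). The authors' ratios gave 1 lower with siRNA 1 and 2 with siRNA 2 (0.479% and 0.732% of all kept probes) and a siRNA 2 median of -0.52. The brightest probe of each gene gave 2 lower with siRNA 2 (1.07% of all genes) and medians of -0.078 and -0.41, and the mean of the probes of each gene gave medians of -0.075 and -0.53. At 1.5-fold, chosen after seeing the data, siRNA 1 gave 1 probe higher and 6 lower, siRNA 2 1 higher and 11 lower. Without the filter on dim probes limma called 5 members: HMGB2 (adjusted p 0.033) and 4 HMGN2 probes (0.0325 to 0.0491). The lowest adjusted p of a member in limma ran from 0.0736 (median centring) to 0.168 (the authors' ratios) over the other settings. The causes of these shifts were not tested. No paired analysis was possible because each siRNA has 1 array; leaving out an array leaves no spread and gives the other array's value, and both arrays lie on 1 slide.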
